A study of Mus musculus with 50 samples.

Results

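Fgf21, Inhbe, Klb, Fgfr4, Lepr, Adipor1, Adipor2 and Gdf15 code for hormones that the liver releases, or for receptors through which it reads hormones of its own and of fat tissue. They were chosen by name, as a list of 8 genes, with earlier results of these data known, and found through the gene symbols of the array's annotation. Of these, 7 are described here out of 30838 genes measured, each by 1 probe that names no other gene, and Gdf15 is not analysed here. Fgf21 is a hormone that hepatocytes make in fasting and under stress, and it acts through an FGF receptor together with the co-receptor beta-klotho, the product of Klb. The liver's main FGF receptor is Fgfr4, which with beta-klotho also takes up the signal of intestinal Fgf15 and lowers bile acid synthesis. Inhbe codes for the beta E subunit of activin, a secreted factor made almost only by the liver. Lepr is the receptor for leptin, a hormone of fat tissue, and Adipor1 and Adipor2 are receptors for adiponectin, another fat tissue hormone; Adipor2 is the form known for its high level in liver.

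The samples were livers of pregnant CD-1 mice, an outbred stock, and of their fetuses on gestational day 17.5. The dams had been gavaged daily between embryonic days 1.5 and 17.5 with PFOA (1 or 5 mg/kg/day), GenX (2 or 10 mg/kg/day) or the vehicle by itself (0 mg/kg/day). PFOA, perfluorooctanoic acid, is a long-lived fluorinated surfactant, and GenX is the trade name of a perfluorinated ether acid brought in to replace it. Each of the 10 groups (5 fetal, 5 maternal) held 5 livers, save 6 fetal livers of high-dose PFOA and 4 of high-dose GenX. According to the labels the fetuses were females from litters of the dams studied, and where a litter offered several females 1 was drawn at random, so the livers of a group came from separate animals. Doses of the compounds did not match, so the compounds were not compared with each other.

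Levels are log2 signals of a whole-transcript microarray, on which 1 unit is a doubling of the signal. The 95th percentile of the negative control probes lay between 7.37 and 8.18 across arrays and is used below as the background limit. A gene at or under that limit on every array of a group is called not well above background, and then only a lower bound is given for a fold change. The bound sets the brighter group's mean against, on each array of the dimmer group, the higher of the limit and the gene's own signal. Of the fetal arrays, 2 had source names that disagreed with their titles: replicate 6 of high-dose PFOA was described as low-dose GenX, and replicate 5 of low-dose GenX as high-dose GenX. Titles were followed, although the source names would give fetal groups of equal size, as the maternal groups are. Results that changed without these arrays are named below. A further 2 fetal arrays (vehicle replicate 3 and low-dose GenX replicate 2) had Xist at 5.39 or lower, against at least 10.52 on the other 23 fetal arrays. The Y chromosome gene Eif2s3y was at 6.10 or higher on these 2, against at most 3.80 on the other 23, all under the background limit. The labels call all fetuses female, and both sex-linked genes go against that label in these 2 livers. The hepatocyte markers Alb, Ttr, Apoa1, Apob and Hnf4a were above background in every group, and of the 4 fat cell markers Adipoq, Lep and Plin1 were in none. The remaining one, Fabp4, was above background on at least 1 liver of both maternal high-dose groups and of high-dose PFOA fetuses, and 1 fat cell marker of 4 was called higher at each maternal high dose. In bulk tissue, fewer cells of a type and less RNA per cell cannot be told apart.

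Of the 8 comparisons of an exposure with vehicle, Adipor2 rose in 7 and Lepr in 6, while Adipor1 and Fgf21 passed the test in none. In fetal liver, 2 of the 7 genes passed the test with low-dose PFOA (Lepr and Adipor2), where 0.947% of all genes did, and 3 with high-dose PFOA (Lepr, Adipor2 and Inhbe), where 3.38% did. The fetal Inhbe call did not hold without the arrays of conflicting labels or with source names followed. Klb, Lepr and Adipor2 passed with low-dose GenX, 3 of 7 against 6.72% of all genes, and the same 3 with high-dose GenX, against 9.26%. In maternal liver, 0 of 7 passed with low-dose PFOA (0.0324% of all genes; 1 of the 7 at an unadjusted p under 0.05) and 5 with high-dose PFOA (19.8%), of which Klb, Lepr, Adipor2 and Inhbe were higher and Fgfr4 lower. Low-dose GenX gave 1 maternal call of 7 (Adipor2; 3.37%) and high-dose GenX 2 (Lepr and Adipor2; 13.7%). Calls are at an adjusted p under 0.05 with limma and Benjamini-Hochberg adjustment over all genes. The 4 exposures of a tissue share its vehicle livers, so their calls are not independent of one another. These genes and the gene lists below were chosen with earlier results of these data known. Their counts beside the shares of all genes are therefore descriptions and not a test of an excess.

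**Figure D1:**
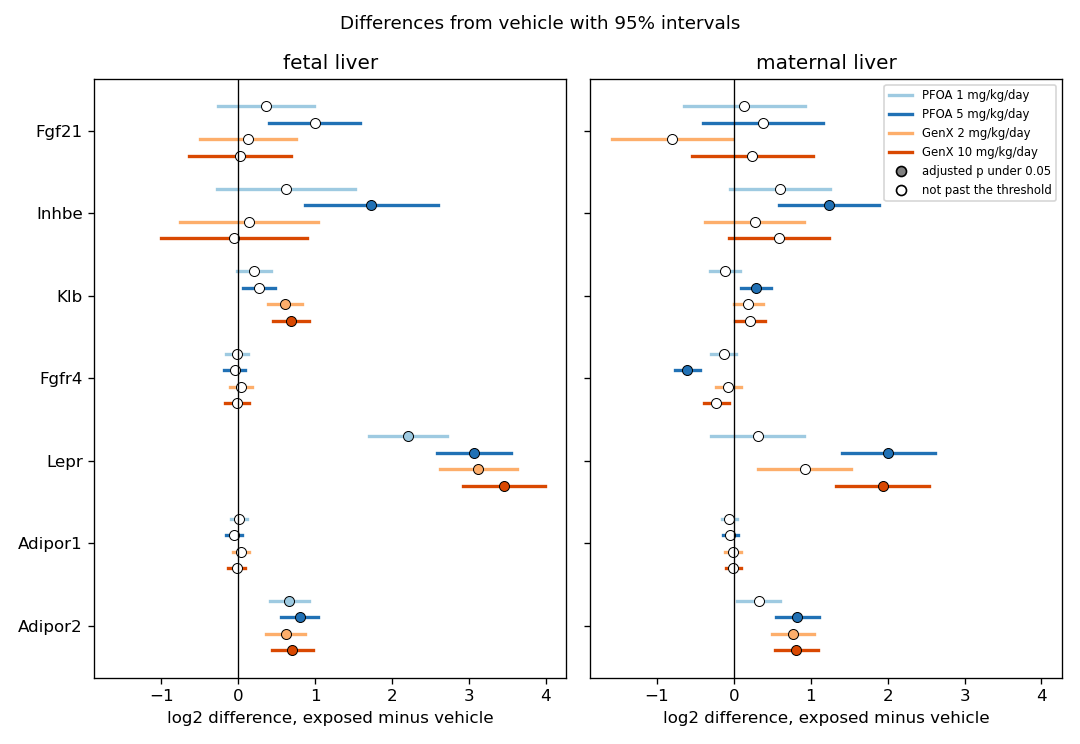
Log2 difference of the signal, exposed minus vehicle (horizontal axis), for 7 genes in fetal liver (left) and maternal liver (right), with 95% confidence intervals from limma; filled points passed an adjusted p of 0.05 over all genes. Lepr and Adipor2 lie to the right of 0 at all 4 exposures in both tissues, Adipor1 stays on 0, and Fgfr4 is lower in maternal liver with high-dose PFOA.

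Of the secreted factors, Inhbe rose with high-dose PFOA in both tissues and Fgf21 passed at no exposure. In fetal liver Fgf21 (chr7:45613890-45615490 in GRCm38.p6) read 5.49, 5.46, 5.55, 5.63 and 5.98 with vehicle and 5.77, 5.78, 5.80, 5.72 and 6.86 with low-dose PFOA. With high-dose PFOA its lowest, median and highest levels were 5.48, 6.76 and 7.90. Thus 4 of the 6 high-dose livers lay at 6.69 or above, over every vehicle liver, and replicates 1 and 2 (5.48 and 5.70) lay among the vehicle livers. Only 1 of the 6 exceeded the background limit, and no liver of the other fetal groups did. The difference of the high-dose PFOA and vehicle livers, 1.00 (95% interval 0.40 to 1.59), missed the threshold (adjusted p = 0.0566, limma). It would pass without replicate 1 (1.23, adjusted p = 0.00522) or without replicate 2 (1.18, adjusted p = 0.0135). The call was made under 5 of 20 alternative settings, these 2 among them. With GenX the fetal levels stayed between 5.50 and 5.95 at both doses, inside the range of the vehicle livers.

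Inhbe (chr10:127349402-127351848) showed the same division of the fetal high-dose PFOA livers. Its levels were 6.42, 6.54, 7.01, 7.33 and 7.70 with vehicle, 7.56, 7.44, 7.54, 6.75 and 8.84 with low-dose PFOA, and 7.31 to 9.91 with a median of 9.0 with high-dose PFOA. Replicates 3 to 6 of the high dose, at 8.65 or above, exceeded all vehicle livers, and replicates 1 and 2 (7.31 and 7.50) did not. Inhbe was higher with high-dose PFOA than with vehicle by 1.73 (0.87 to 2.59; adjusted p = 0.0165, limma), at least 1.79-fold, the vehicle livers being not well above background. The call did not hold without the 2 arrays of conflicting labels (1.54, adjusted p = 0.0560), with source names followed (adjusted p = 0.131), with only the 2 groups in the fit (adjusted p = 0.0763), or without vehicle replicate 1 (0.0601) or 2 (0.0519) or high-dose replicate 3 (0.0524). With GenX the fetal levels were 7.19, 7.31, 7.35, 6.47 and 7.37 at the low dose and 6.05, 7.19, 7.26 and 7.30 at the high dose, overlapping the vehicle livers.

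In maternal liver every group had livers above background for both factors. Inhbe was 9.02, 8.13, 8.67, 9.39 and 9.07 with vehicle, 8.49, 10.62, 9.60, 8.85 and 9.72 with low-dose PFOA, and 10.26, 10.51, 9.33, 10.08 and 10.29 with high-dose PFOA. High-dose PFOA and vehicle overlapped by 1 liver of each group, and the difference was 1.24 (0.59 to 1.89; adjusted p = 0.00673, limma), or 2.36-fold. Maternal Inhbe with high-dose GenX was 0.59 higher (-0.06 to 1.24) and did not pass. Maternal Fgf21 spread more than any other of the 7 genes in vehicle livers, 7.28 to 9.39, and no exposure passed the test. With low-dose GenX it read 6.93, 8.04, 7.60, 8.39 and 7.50, a difference of -0.81 (-1.59 to -0.02; adjusted p = 0.284), while with high-dose PFOA it read 8.77, 9.26, 8.69, 8.53 and 9.13, a difference of 0.38 (-0.41 to 1.16).

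**Figure D2:**
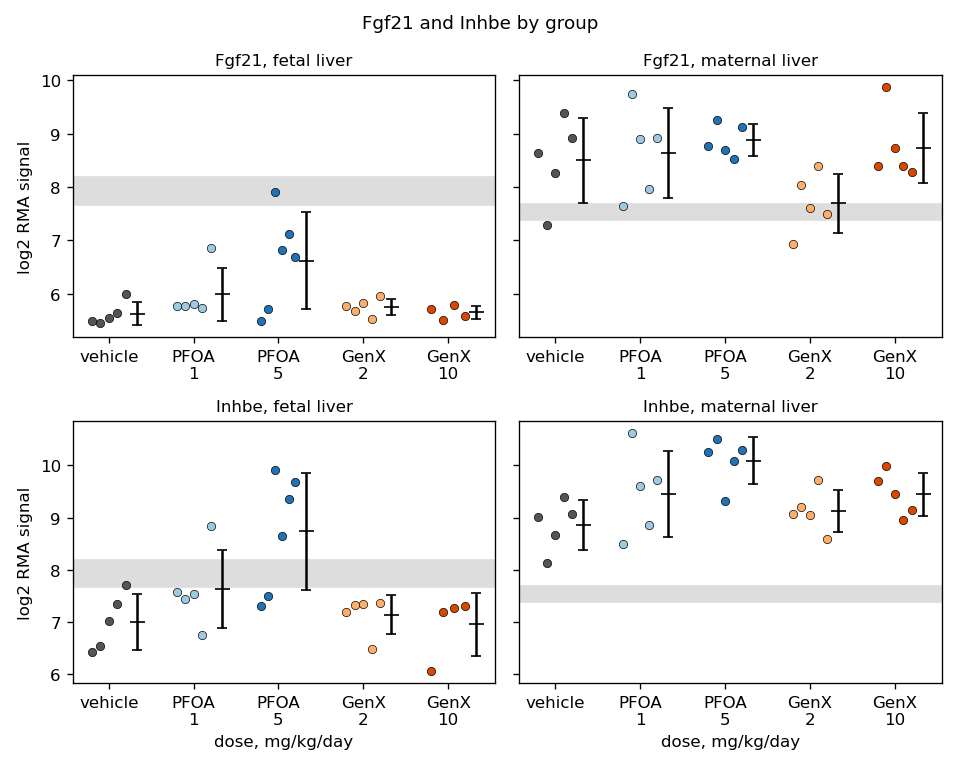
Log2 signal of Fgf21 (top) and Inhbe (bottom) in fetal (left) and maternal (right) liver by dose in mg/kg/day; each point is 1 liver, bars are mean ± SD, and the grey band is the range of the background limit over arrays. In fetal liver, 4 of 6 high-dose PFOA livers stand above the vehicle livers for both genes, and fetal Fgf21 lies under the band except in 1 liver.

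Over the 25 fetal arrays Inhbe was the gene whose pattern was most like that of Fgf21 among 4262 candidates (Pearson r = 0.91, Spearman rho = 0.81), and over the 25 maternal arrays among 5083 candidates (r = 0.75, rho = 0.77). Candidates were named genes above background on at least 5 arrays of the tissue. Fetal Inhbe met this only through 4 high-dose PFOA livers and 1 low-dose PFOA liver, where Fgf21 was high as well. Its fetal rank is therefore not independent of that group. As deviations from group means, r was 0.83 in fetal and 0.85 in maternal liver, and without the high-dose PFOA livers the fetal r was 0.79 over 19 arrays. On none of those 19 was Fgf21 above the background limit, and Inhbe was on 1, so that value is between signals near background. These are descriptions over arrays that share a normalization, with no test. Next in likeness to Fgf21 came Cd164 (r = 0.88) and Esrp2 (0.84) in fetal liver, and Sesn2 (0.74) and Tmem82 (0.73) in maternal liver.

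**Figure D3:**
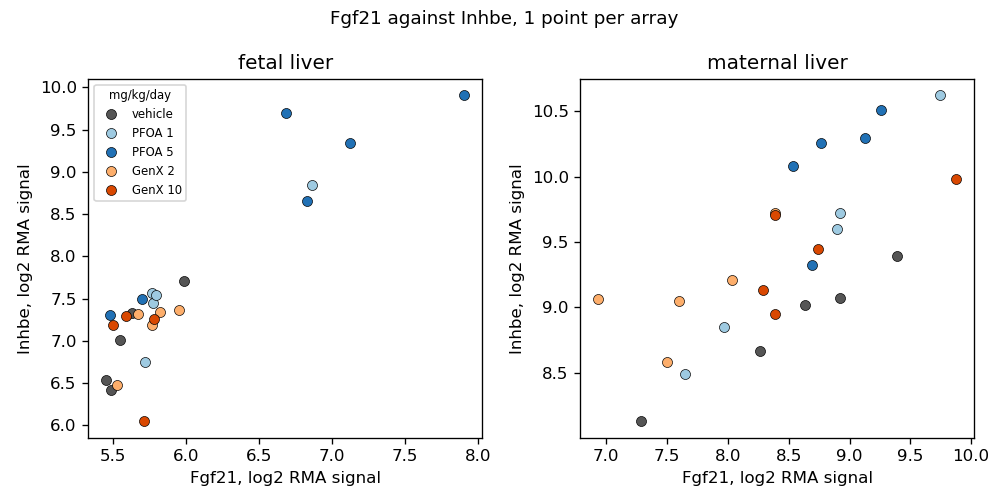
Log2 signal of Inhbe (vertical axis) against that of Fgf21 (horizontal axis), 1 point per liver, coloured by dose in mg/kg/day, in fetal (left) and maternal (right) liver. The points rise together in both tissues, and in fetal liver 4 high-dose PFOA livers and 1 low-dose PFOA liver stand at the top.

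The promoters of the pair are shown because they hold a shared run of letters, of the kind bound by ATF4 with a C/EBP partner (the C/EBP-ATF response element, searched as TGATGNAAN on both strands). Capitals mark it. The windows cover 250 bases before to 50 bases after the gene's start, from RefSeq on GRCm38.p6, and are written along the gene, which lies on the minus strand for both (chr7:45615441-45615740 for Fgf21 and chr10:127351799-127352098 for Inhbe).
Fgf21: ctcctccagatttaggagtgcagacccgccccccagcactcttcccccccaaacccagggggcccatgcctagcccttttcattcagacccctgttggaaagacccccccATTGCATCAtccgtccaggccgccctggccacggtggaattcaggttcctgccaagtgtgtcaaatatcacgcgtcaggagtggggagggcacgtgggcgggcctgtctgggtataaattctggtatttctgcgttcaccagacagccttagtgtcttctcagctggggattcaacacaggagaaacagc
Inhbe: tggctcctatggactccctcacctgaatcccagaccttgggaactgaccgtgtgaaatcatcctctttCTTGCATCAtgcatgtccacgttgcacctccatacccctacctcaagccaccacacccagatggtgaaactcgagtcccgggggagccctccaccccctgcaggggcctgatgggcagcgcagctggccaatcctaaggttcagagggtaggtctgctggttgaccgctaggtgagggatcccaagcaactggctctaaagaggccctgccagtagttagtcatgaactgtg
The match, on the strand opposite to the gene, lies at 140 to 132 bases before the start of Fgf21 and 182 to 174 bases before that of Inhbe. Such letters occur in 3.95% of 32851 promoter windows, and in 2 of the 7 genes described. The half-site of nuclear receptors such as PPAR-alpha (AGGTCA, either strand, which occurs in 16.3% of windows) was in none of the 9 windows of the 7 genes. A match is a description of letters and not evidence of binding.

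Other genes of the stress response that reads through ATF4 were counted beside the pair. Of 15 (among them Atf4, Ddit3, Trib3, Asns and Nupr1), 3 rose and 2 fell in maternal liver with high-dose PFOA, where 19.8% of all genes were called, with a list median of 0.14 against -0.05 over all genes. Those named are Trib3, a pseudokinase that ATF4 induces (1.02, adjusted p = 3.13e-05), and Nupr1, a stress-induced nuclear protein (0.95, adjusted p = 0.000524), which rose from vehicle levels not well above background, and Chac1, which breaks down glutathione and is likewise ATF4-induced, which fell by 0.35 (adjusted p = 0.0150; not well above background in either group). Chac1 was the 1 of 15 that passed with each maternal GenX dose, also lower, where 3.37% (low dose) and 13.7% (high dose) of all genes were called. In fetal liver 0 of the 15 passed at any of the 4 exposures (limma), where 0.947% to 9.26% of all genes were called. With high-dose PFOA, where fetal Inhbe was called, the list median was 0.08 and the smallest p was that of Slc7a11 (0.10, adjusted p = 0.286).

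Other subunits and partners of the activin family were counted beside Inhbe. Of 14 measured, 0 rose and 4 fell in maternal liver with high-dose PFOA, and 0 rose and 2 fell with high-dose GenX, where 19.8% and 13.7% of all genes were called in either direction. Inhba, the beta A subunit, was lower in maternal liver with high-dose PFOA (-0.43, adjusted p = 0.0367) and with high-dose GenX (-0.51, adjusted p = 0.0199). In fetal liver 0 rose and 1, 2 and 2 fell with high-dose PFOA, low-dose GenX and high-dose GenX, where 3.38%, 6.72% and 9.26% of all genes were called. Inhba was lower with low-dose GenX (-0.44) and high-dose GenX (-0.45), and Fst, the activin antagonist follistatin, with high-dose PFOA (-0.43) and high-dose GenX (-0.39); none of these fetal groups was well above background for either gene. Gfral and Ret, the receptor pair of GDF15, were not well above background in the comparisons where they are named, and of the 2 only Ret passed an exposure, lower in maternal liver with high-dose PFOA (-0.16, adjusted p = 0.0481).

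Klb, the co-receptor, rose in fetal liver with GenX. Fetal Klb (chr5:65348411-65386957) read 8.13, 8.42, 8.70, 8.58 and 8.15 with vehicle, 9.14, 8.87, 8.86, 9.03 and 9.11 at 2 mg/kg/day GenX, and 9.17, 9.13, 8.93 and 9.11 at 10 mg/kg/day. All GenX livers exceeded all vehicle livers. The differences were 0.61 (0.39 to 0.83; adjusted p = 0.000581, limma) at the low dose and 0.69 (0.45 to 0.92; adjusted p = 0.000251) at the high dose, or 1.52-fold and 1.61-fold. Without the arrays of conflicting labels the low-dose difference was 0.58, and without those of low Xist the differences were 0.72 and 0.76, all still called. With PFOA the fetal differences were 0.21 (-0.01 to 0.43) at the low and 0.27 (0.06 to 0.48; adjusted p = 0.198) at the high dose, with overlapping livers.

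In maternal liver Klb was 8.20, 8.29, 8.15, 8.17 and 8.24 with vehicle, 8.29, 8.05, 8.04, 7.96 and 8.13 with low-dose PFOA, and 8.46, 8.63, 8.34, 8.60 and 8.45 with high-dose PFOA. The high-dose PFOA livers lay above all maternal livers with vehicle or low-dose PFOA. The change from vehicle was small, 0.28 (0.09 to 0.48; adjusted p = 0.0324, limma), and lost the call on leaving out vehicle replicate 1, 3 or 4 or high-dose replicate 2 or 4 (adjusted p up to 0.0869). With GenX the maternal differences were 0.19 (-0.0032 to 0.38) and 0.21 (0.02 to 0.40) at the low and high dose and did not pass; without replicate 2 the high dose would pass (0.30, adjusted p = 0.0146). The fetal response to high-dose GenX exceeded the maternal one by 0.48 (0.18 to 0.78), which missed the threshold (adjusted p = 0.0885, limma), as did that to low-dose GenX (0.42, adjusted p = 0.198).

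Fgfr4, the receptor, fell in maternal liver with high-dose PFOA. Its levels (chr13:55152818-55168759) were 7.92, 7.58, 7.65, 7.71 and 7.63 with vehicle, 7.67, 7.70, 7.66, 7.34 and 7.45 with low-dose PFOA, and 7.20, 7.30, 6.95, 7.01 and 7.01 with high-dose PFOA. No high-dose liver reached the vehicle range, and none was above background, so the fall was at least 1.13-fold; the measured difference was -0.61 (-0.77 to -0.44; adjusted p = 4.32e-06, limma). With GenX maternal Fgfr4 was -0.07 (-0.24 to 0.09) at the low and -0.23 (-0.39 to -0.07; adjusted p = 0.0504) at the high dose. The high-dose GenX livers, 7.54, 7.47, 7.37, 7.43 and 7.53, were all under the vehicle livers, and the call was made under 5 of 17 alternative settings. In fetal liver Fgfr4 lay between 6.96 and 7.35 in every group and was never above background, so no fetal fold is given. The fetal minus maternal effect of high-dose PFOA was 0.56 (0.35 to 0.77; adjusted p = 0.000298), with 4.47% of all genes called in that test, but with the fetal signal under the limit a fetal fall could not be seen, and the value does not show that the tissues differ in response.

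**Figure D4:**
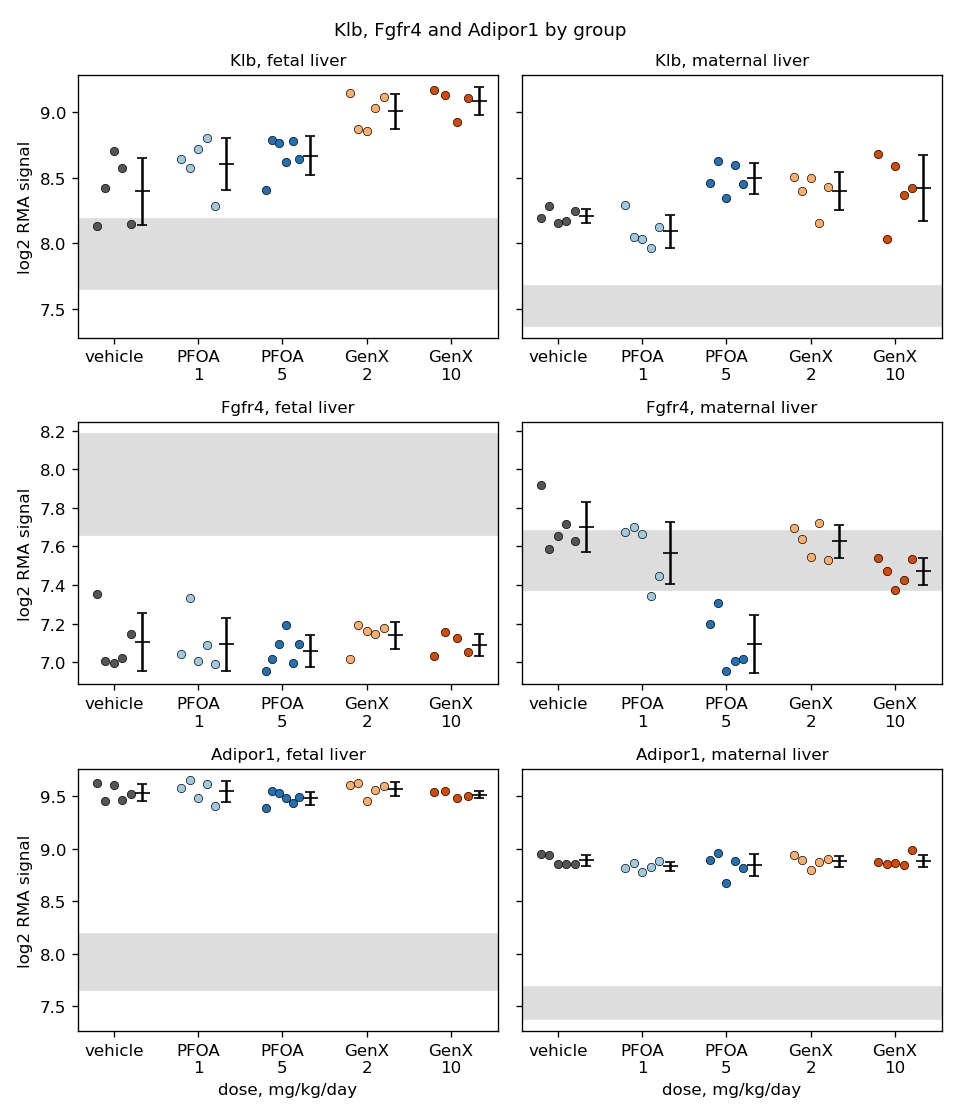
Log2 signal of Klb, Fgfr4 and Adipor1 (top to bottom) in fetal (left) and maternal (right) liver by dose in mg/kg/day; points are livers, bars mean ± SD, and the grey band the range of the background limit. Fetal Klb is highest with GenX, maternal Fgfr4 drops into the region below the band with high-dose PFOA, and Adipor1 is flat within each tissue.

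Cyp7a1 and Cyp8b1, enzymes of bile acid synthesis that lie downstream of Fgfr4 and beta-klotho, fell at 3 of the 4 fetal exposures. Of 5 genes measured around this pathway (with Nr0b2, Nr1h4 and Fgf15), 0 rose and 2 fell with high-dose PFOA, low-dose GenX and high-dose GenX alike. Of all genes 3.38%, 6.72% and 9.26% were called at these exposures. Cyp7a1, the rate-limiting enzyme, averaged 5.89 with high-dose PFOA, 6.11 with low-dose GenX and 6.00 with high-dose GenX, against 8.16 with vehicle. Those 3 exposed groups were not well above background, and the differences were -2.27, -2.05 and -2.17 (largest adjusted p = 0.000103, limma). Cyp8b1, which sets the share of cholic acid, was lower too, with differences of -1.30, -1.32 and -1.50 in the same order. With low-dose PFOA none of the 5 passed, and Cyp7a1 was at -0.96 (-1.60 to -0.32; adjusted p = 0.225). In maternal liver Cyp7a1 and Cyp8b1 did not pass. The 1 call of 5 with high-dose PFOA was Nr1h4, the bile acid receptor FXR (0.97, adjusted p = 9.16e-05, limma), where 19.8% of all genes were called. The 1 call of 5 with high-dose GenX was Nr0b2, the repressor SHP that FXR induces (0.92, adjusted p = 0.0314), where 13.7% were called.

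Among the other FGF receptors and co-receptors (6 measured), maternal Fgfr3 fell with high-dose PFOA (-0.36, adjusted p = 0.000835) and high-dose GenX (-0.29, adjusted p = 0.00956), and maternal Fgfr2 rose with low-dose and high-dose GenX (0.30 and 0.31). In fetal liver 2 of the 6 fell with each GenX dose, Fgfr3 and Fgfbp1, both not well above background. Of all genes 6.72% and 9.26% were called at the low and high dose. Of 9 genes that carry the FGF signal inside the cell, Sos1, an exchange factor that activates Ras, rose with high-dose PFOA, low-dose GenX and high-dose GenX in fetal liver (0.41, 0.38 and 0.50) and with both high doses in maternal liver (0.39 for PFOA and 0.33 for GenX); its fetal vehicle and GenX groups were not well above background. Etv4 and Etv5, transcription factors that FGF signalling induces, were lower in maternal liver with high-dose PFOA (-0.24 and -0.22) and high-dose GenX (-0.22 and -0.17), at levels not above background. PPAR-alpha induces Fgf21 in fasting. Of 7 genes on that side of Fgf21, 4 rose at each fetal exposure, where 0.947% to 9.26% of all genes were called. In maternal liver 1 of 7 rose with low-dose PFOA (0.0324% of all genes). At the other maternal exposures 5 of 7 rose, and 1 of 7 fell at each high dose. Of all genes 19.8%, 3.37% and 13.7% were called there (high-dose PFOA, low-dose GenX, high-dose GenX). Pdk4, a fasting switch of glucose use, rose by 2.09, 2.40, 2.51 and 2.67 in fetal liver. In maternal liver it rose by 1.93, 4.75, 3.89 and 4.79 (low-dose PFOA, high-dose PFOA, low-dose GenX, high-dose GenX). Fgf21 passed in none of the 8 comparisons. Only 1 fetal liver, of high-dose PFOA, was above the background limit for Fgf21, so fetal rises under the limit could be missed. Whether Fgf21 follows these genes was not tested.

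The leptin receptor rose at each of the 4 fetal exposures. Fetal Lepr (chr4:101717137-101815352) read 5.50, 5.77, 5.82, 5.56 and 5.26 with vehicle, 7.84, 7.19, 7.94, 7.45 and 8.52 with low-dose PFOA, and 8.02 to 9.31 with a median of 8.67 with high-dose PFOA. With GenX it read 8.83, 8.54, 8.87, 8.32 and 8.98 at the low dose and 9.67, 8.92, 8.71 and 8.86 at the high dose. Every exposed liver exceeded every vehicle liver by more than 1 unit. The differences from vehicle were 2.21 (1.70 to 2.71), 3.07 (2.59 to 3.55), 3.12 (2.62 to 3.63) and 3.45 (2.92 to 3.99) for low-dose PFOA, high-dose PFOA, low-dose GenX and high-dose GenX (largest adjusted p = 2.54e-06, limma). The vehicle livers were not well above background, so the rise was at least 1.69-fold with high-dose PFOA, 1.76-fold with low-dose GenX and 2.21-fold with high-dose GenX; for low-dose PFOA, where 3 of 5 livers were above background, no bound over 1 was reached. The 4 calls held in all alternative fits, with high-dose PFOA at 3.09 and low-dose GenX at 3.05 without the arrays of conflicting labels, and at 3.13 and 3.22 without those of low Xist. Cell type markers differed in fetal liver as well. Of 5 stellate markers 1 was lower with low-dose PFOA, and 1 was higher and 1 lower with high-dose PFOA. With low-dose GenX 1 was higher and 2 were lower, and with high-dose GenX 1 was lower. Of 6 macrophage markers 1 was lower at these exposures except low-dose PFOA, and of 6 hepatocyte markers 1 was lower at each GenX dose. The part of these cell types in the fetal results was not tested.

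Maternal Lepr rose at both high doses and passed at neither low dose. It read 5.23, 5.24, 5.26, 5.54 and 5.65 with vehicle, 5.35, 5.43, 6.24, 5.79 and 5.67 with low-dose PFOA, and 6.42, 7.73, 6.88, 8.27 and 7.65 with high-dose PFOA. With GenX it read 5.79, 5.63, 6.98, 6.59 and 6.52 at the low dose and 7.91, 7.26, 7.70, 7.08 and 6.65 at the high dose. High-dose livers of either compound all stood above the vehicle livers, and 3 of 5 with PFOA and 2 of 5 with GenX were above background. The differences were 2.01 (1.40 to 2.61; adjusted p = 2.29e-05, limma) with high-dose PFOA and 1.93 (1.33 to 2.54; adjusted p = 5.71e-05) with high-dose GenX. The vehicle livers were not well above background and no bound over 1 was reached at either dose, so these are differences of signals and not folds. With low-dose GenX it was 0.92 (0.32 to 1.52; adjusted p = 0.0888), which passed only when genes near background were left out of the adjustment (adjusted p = 0.0440), and with low-dose PFOA 0.31 (-0.29 to 0.91). Markers of other cell types differed in these maternal livers too, where 19.8% (high-dose PFOA) and 13.7% (high-dose GenX) of all genes were called. With high-dose PFOA 2 of 5 stellate and 1 of 5 endothelial markers were lower and 1 of 4 fat cell markers was higher, and with high-dose GenX 1 of 5 stellate markers was higher, 1 was lower and 1 of 4 fat cell markers was higher. Further, 2 of 6 macrophage markers were higher with high-dose PFOA and 1 of 6 with high-dose GenX; the mean level over the 6 was 6.85 to 7.71 and 7.14 to 7.74 per liver, against 6.71 to 7.46 with vehicle, with Adgre1 and Timd4 not well above background in any of the 3 groups and Cd68 not with vehicle, and the part of these cell types in the result was not tested.

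The fetal change of the Lepr signal exceeded the maternal one at 3 of 4 exposures. The difference of the effects, fetal minus maternal, was 1.90 (1.10 to 2.69; adjusted p = 0.0153, limma) for low-dose PFOA, where 0.178% of all genes were called, and 2.20 (1.41 to 3.0; adjusted p = 0.000633) for low-dose GenX, where 1.27% were. It was 1.52 (0.70 to 2.34; adjusted p = 0.0324) for high-dose GenX, where 2.01% were called, and 1.06 (0.28 to 1.84; adjusted p = 0.121) for high-dose PFOA. The high-dose GenX call did not hold in 8 of 29 alternatives, each leaving out 1 liver (vehicle fetus 1 or 5, vehicle dam 4 or 5, high-dose GenX fetus 1 or 2, or high-dose GenX dam 4 or 5; adjusted p up to 0.119), and that of low-dose PFOA was lost without fetal low-dose replicate 5 (adjusted p = 0.0664). The vehicle levels lay under the background limit, so these are differences of signals and not of folds. Maternal Lepr was also not well above background at either low dose, so a maternal rise there could be understated. With high-dose GenX only 2 of 5 maternal livers were above background and no bound over 1 was reached, so a maternal rise could be understated there too. None of these values shows that the tissues differ in response.

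**Figure D5:**
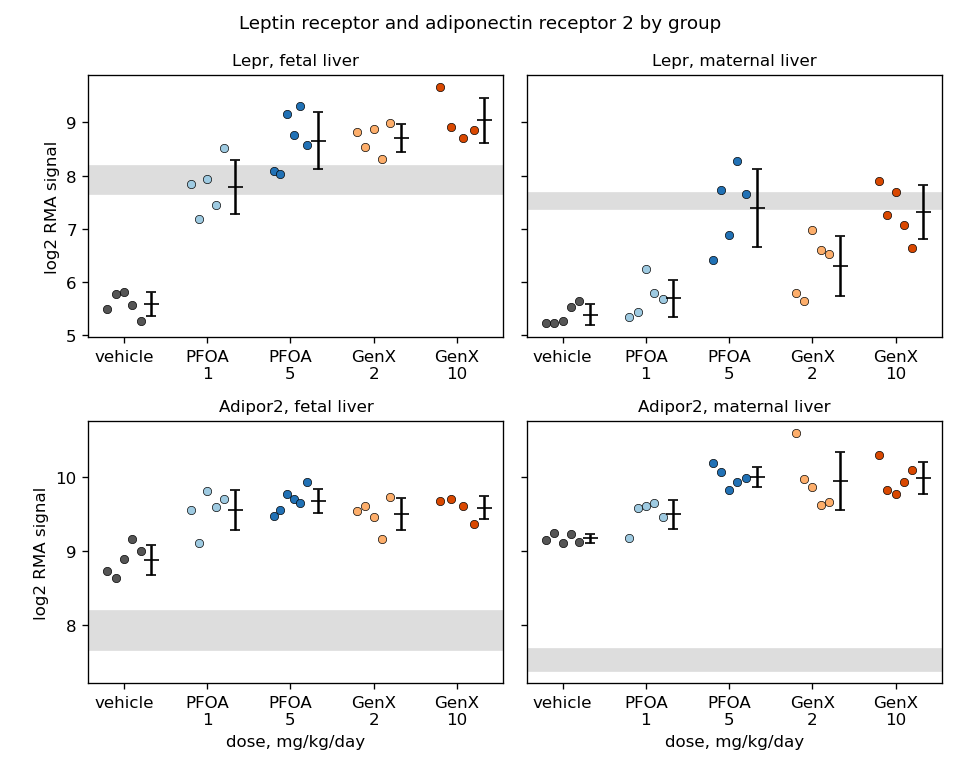
Log2 signal of Lepr (top) and Adipor2 (bottom) in fetal (left) and maternal (right) liver by dose in mg/kg/day; points are livers, bars mean ± SD, and the grey band the range of the background limit. Fetal Lepr stands above its vehicle livers at every exposure, with 3 of 5 low-dose PFOA livers and all livers of the other exposed groups over the background limit of their array; of the maternal livers 3 of 5 with high-dose PFOA and 2 of 5 with high-dose GenX are over it. Adipor2 is well above background in every group.

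Of 10 genes of leptin and its signalling (Lep, Leprot, Leprotl1, Jak2, Stat3, Stat5b, Socs3, Ptpn1, Sh2b1 and Irs2), 0 passed in fetal liver with either PFOA dose or high-dose GenX and 1 with low-dose GenX, Ptpn1, a phosphatase that dampens the receptor (0.21, adjusted p = 0.0135). In maternal liver Stat5b was lower with high-dose PFOA (-0.39, adjusted p = 0.000876), Ptpn1 was higher with high-dose GenX (0.24, adjusted p = 0.00812), and no other passed at any exposure. Of all genes 0.947%, 3.38%, 6.72% and 9.26% were called at the 4 fetal exposures, low-dose PFOA to high-dose GenX, and 19.8% and 13.7% with high-dose PFOA and high-dose GenX in maternal liver. Leprot, which lies before Lepr on chromosome 4 (chr4:101647783-101659364) and codes for a protein that holds back leptin receptors from the cell surface, averaged 8.62 to 8.66 in the 4 fetal exposed groups, against 8.60 with vehicle, and its 8 differences from vehicle lay between 0.02 and 0.08. By the same measure, the genes most like Lepr over the fetal arrays were Eci2 (r = 0.98), Cpt1b (0.98) and Hsdl2 (0.98), of which the first pair serve fatty acid oxidation, and over the maternal arrays Fbp2 (0.93), Ppp2r2d (0.92) and Trpm4 (0.92).

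Adipor2 rose at every fetal exposure, and Adipor1 at none. Fetal Adipor2 (chr6:119353150-119417699) read 8.72, 8.64, 8.88, 9.15 and 9.0 with vehicle, 9.55, 9.10, 9.81, 9.59 and 9.69 with low-dose PFOA, and 9.47 to 9.93 with a median of 9.68 with high-dose PFOA. With GenX it read 9.54, 9.61, 9.46, 9.16 and 9.72 at the low dose and 9.67, 9.70, 9.60 and 9.36 at the high dose. Except for 1 low-dose PFOA liver at 9.10, every exposed liver exceeded all vehicle livers. The rises were 0.67 (0.42 to 0.92), 0.80 (0.56 to 1.04), 0.62 (0.37 to 0.87) and 0.70 (0.44 to 0.97) for low-dose PFOA, high-dose PFOA, low-dose GenX and high-dose GenX, or 1.59-fold, 1.74-fold, 1.54-fold and 1.63-fold (largest adjusted p = 0.00304, limma), and all 4 calls held in every alternative fit, with high-dose PFOA at 0.75 and low-dose GenX at 0.56 without the arrays of conflicting labels.

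In maternal liver Adipor2 was 9.14, 9.25, 9.11, 9.23 and 9.12 with vehicle, 9.18, 9.58, 9.60, 9.65 and 9.46 with low-dose PFOA, and 10.19, 10.06, 9.82, 9.93 and 9.99 with high-dose PFOA. With GenX it was 10.59, 9.97, 9.86, 9.62 and 9.66 at the low dose and 10.30, 9.82, 9.77, 9.94 and 10.09 at the high dose. The high-dose PFOA livers and all GenX livers stood clear of the vehicle livers. The rises were 0.83 (0.55 to 1.10; adjusted p = 9.09e-05, limma) with high-dose PFOA, 0.77 (0.49 to 1.05; adjusted p = 0.00109) with low-dose GenX and 0.81 (0.53 to 1.09; adjusted p = 0.000178) with high-dose GenX, and 0.32 (0.05 to 0.60; adjusted p = 0.927) with low-dose PFOA did not pass. None of the 4 differences between the fetal and the maternal effect on Adipor2 passed the test; they lay between -0.15 and 0.34.

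Adipor1 (chr1:134415378-134433351) differed from vehicle by -0.06 to 0.04 at the 8 exposures, and its group means spanned 9.48 to 9.57 in fetal and 8.83 to 8.89 in maternal liver. Taken over all 8, the 95% intervals spanned -0.16 to 0.14. Of 7 further genes of adiponectin and its signalling, Prkaa2, a catalytic subunit of the AMP kinase that adiponectin activates, and Paqr9, a membrane protein of the same receptor family, both rose at every exposure except maternal low-dose PFOA. At the fetal exposures 0.947% to 9.26% of all genes were called. In maternal liver 19.8%, 3.37% and 13.7% were called with high-dose PFOA, low-dose GenX and high-dose GenX. Paqr9 rose by 0.78, 0.90, 0.91 and 0.95 in fetal liver (low-dose PFOA, high-dose PFOA, low-dose GenX, high-dose GenX) and by 0.49, 0.68 and 0.87 in maternal liver (high-dose PFOA, low-dose GenX, high-dose GenX). Prkaa2 rose by 1.19, 0.82 and 1.03 in maternal liver in that order; its fetal rises, 0.66 to 0.95, were between groups not well above background. Fetal Paqr3 also rose with high-dose PFOA (0.27, adjusted p = 0.0470), likewise not above background. Over fetal arrays Adipor2 was most like Acsl5 (r = 0.96), Acacb (0.95) and Mgst1 (0.94), the first pair being enzymes of fatty acid handling, and over maternal arrays most like Pcnx, Mtarc1 and Aadat (0.96, 0.95 and 0.95).

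Between the doses of a compound, calls were made only for PFOA in maternal liver. High-dose against low-dose PFOA in maternal liver gave 4 calls of 7, with 18.7% of all genes called: Lepr (1.70, adjusted p = 0.000249), Adipor2 (0.50, adjusted p = 0.0115) and Klb (0.40, adjusted p = 0.00388) were higher at the high dose and Fgfr4 lower (-0.47, adjusted p = 0.000166). Low-dose Lepr was not well above background and no bound over 1 was reached. High-dose against low-dose GenX in maternal liver gave 0 of 7 calls (0.237% of all genes; 2 of 7 at an unadjusted p under 0.05), with Lepr at 1.01 (0.41 to 1.62; adjusted p = 0.220). In fetal liver 0 of 7 passed between the PFOA doses (0.0486% of all genes; 3 of 7 at an unadjusted p under 0.05), with Lepr at 0.86 (0.38 to 1.34) and Inhbe at 1.11 (0.25 to 1.97). Between the GenX doses 0 of 7 passed in fetal liver and limma called 0 genes in all (0%), with 624 of 30838 genes and none of the 7 at an unadjusted p under 0.05. Whether the dose steps differed between compounds was not tested.

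Without exposure the tissues differed in 4 of the 7 genes, in a comparison where 62.2% of all genes were called. Fgf21 averaged 5.62 ± 0.21 in fetal and 8.50 ± 0.79 in maternal vehicle livers (SD, n = 5 each), so that maternal Fgf21 was at least 1.52-fold higher (difference -2.88, adjusted p = 3.79e-09, limma). Inhbe averaged 7.0 ± 0.54 in fetal and 8.86 ± 0.48 in maternal livers, at least 1.95-fold higher in the dams (-1.85, adjusted p = 0.000108), and the related subunit Inhbc was lower in the fetus too (-2.52). The Fgfr4 signal was lower in fetal liver (-0.60), but fetal Fgfr4 was not well above background and no bound over 1 was reached for its fold. Adipor1 was higher in fetal liver (0.64, or 1.56-fold; adjusted p = 1.35e-15), while Klb (0.18), Lepr (0.20) and Adipor2 (-0.29) did not pass. All 5 erythroid markers measured were higher in fetal liver, with a mean level of 9.46 to 9.91 per liver, against 6.52 to 6.90 in maternal liver, where Klf1, Epb42 and Hemgn were not well above background. Of 6 hepatocyte markers 1 was higher and 4 were lower in fetal liver, with a median difference of -0.34 and mean levels of 11.86 to 11.94 per fetal liver, against 11.09 to 11.33 per maternal liver, where Afp was not well above background. Of 6 macrophage markers 5 were higher and 1 lower, with mean levels of 7.52 to 7.78, against 6.71 to 7.46; Adgre1 and Timd4 were not well above background in either tissue. The part of these cell types in the differences was not tested. Median centring of each array left the 4 calls as they were, the median over all genes being -0.13. Fetuses came from the litters of the dams, a pairing that the replicate numbers do not give and that the test does not use.

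Ranked by mean over the 10 groups, Lepr was highest in high-dose GenX fetuses (9.04 ± 0.43, SD, n = 4) and lowest in vehicle dams (5.38 ± 0.20, n = 5). Adipor2 was highest in high-dose PFOA dams (10.00 ± 0.14, n = 5) and lowest in vehicle fetuses (8.88 ± 0.21, n = 5). The ranges of all neighbouring groups in these orders overlapped, and the same holds for Fgf21 and Inhbe. For Klb, Fgfr4 and Adipor1, 1 of 9 neighbouring pairs did not overlap. The Klb gap, between low-dose GenX and high-dose PFOA fetuses, depends on the titles. It would close if high-dose PFOA replicate 6 (8.64) were counted as low-dose GenX, as its source name has it. The gaps of Fgfr4 (high-dose GenX dams, low-dose GenX fetuses) and Adipor1 (lowest fetal, highest maternal group) lie between the tissues. Without exposure 62.2% of all genes were called between the tissues. Gaps were not counted over all genes. Over the arrays of a tissue, Lepr and Adipor2 had r = 0.83 in fetal and 0.61 in maternal liver, and Klb and Lepr 0.69 and 0.63, which reflect differences between groups as well as between animals.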

How the data were processed

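RNA of 50 livers was measured on Affymetrix whole-transcript arrays. The deposited values are log2 signals that the authors normalized by RMA, with mm10 as the build, per the submitters' processing notes; array medians lay between 5.15 and 5.34 and precision is set by how many arrays a group has. Of 32750 annotated probes, 31402 name 1 gene and 1348 several, and probes with several were not named. Of 72688 features, 5222 were negative controls. The brightest probe stood for each of 425 genes with several, giving 30838 genes, with 1176 symbols updated through RefSeq GRCm38.p6. Groups follow the titles. Each tissue was fitted with limma 3.58.1 (lmFit, eBayes; R 4.3.3) with its 5 groups, and the tissue contrasts with all 10, and p-values were adjusted by Benjamini-Hochberg over all genes in each of 17 comparisons. The script was tested on simulated data. No arrays were duplicates. Alternatives were a variance trend, a filter on genes near background (above the limit on at least 4 arrays), median centring, array weights, fits of only the groups compared, a replicate block, means over probes, other treatments of the doubtful fetal arrays, and leaving out each array.

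The genes and the 9 lists (78 genes, 75 measured) were chosen with earlier results of these data known. Named genes were the members, up to 3 per list and comparison with the smallest adjusted p under 0.05 (otherwise the smallest p), and the 3 most alike by Pearson r. Correlations between the deviations of same-numbered samples lay between -0.54 and 0.59. No comparison had all of them over 0.1, but single pairs were, up to 3 of 5 between the GenX doses in maternal liver. A shared deviation of some pairs is not excluded by this.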

Additional observations from a re-analysis of the deposited data

Results flagged for a closer look

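In some groups 1 liver stood far from the rest, a pattern that chance gives in about 1 in 20 groups. Fetal low-dose PFOA replicate 5 had Fgf21 at 6.86, with the other 4 livers between 5.72 and 5.80, and the same liver had the highest Inhbe of its group (8.84). Maternal high-dose GenX replicate 2 had Fgf21 at 9.88 (the others 8.29 to 8.74). For Inhbe, fetal high-dose GenX replicate 1 was at 6.05 (the others 7.19 to 7.30) and fetal low-dose GenX replicate 4 at 6.47 (the others 7.19 to 7.37), all not well above background. Fgfr4 was at 7.02 in fetal low-dose GenX replicate 1 (the others 7.15 to 7.19), also not well above background, and Adipor1 at 8.98 in maternal high-dose GenX replicate 5 (the others 8.85 to 8.88).

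The fetal change of the Lepr signal exceeded the maternal one by limma's test of the difference. The excess was 1.90 with low-dose PFOA, 2.20 with low-dose GenX and 1.52 with high-dose GenX. Maternal Lepr was not well above background with vehicle or at either low dose, and with high-dose GenX only 2 of 5 livers were above background. A maternal rise could be understated at each of these exposures, so the values do not show that the tissues differ in response. For Fgfr4 the difference was 0.559 with high-dose PFOA, but fetal Fgfr4 was not well above background in any group, so a fetal fall could not be seen and the value does not show that the tissues differ in response.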

How the results depend on the processing

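No value changed direction past the test under any alternative. Leaving genes near background out gave 2 calls of 7 for maternal low-dose GenX and 2 for the fetal minus maternal effect of high-dose GenX, which was also 2 without the fetal arrays of low Xist; the added genes were Lepr (adjusted p = 0.0440) and Klb (0.0424 and 0.0338). Leaving out 1 array, the calls of the fetal minus maternal effect ranged over 0 to 1 for low-dose PFOA, 1 to 2 for high-dose PFOA and 0 to 2 for high-dose GenX; without maternal high-dose PFOA replicate 4, Lepr passed for high-dose PFOA (1.28, adjusted p = 0.0468). Calls against vehicle ranged over 4 to 5 (maternal high-dose PFOA), 2 to 3 (maternal high-dose GenX) and 2 to 4 (fetal high-dose PFOA), and over 4 to 6 between the vehicle livers of the tissues. Of 1470 single values with 1 array left out, 17 lost and 12 gained a call. The cause was not tested.

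The main fits did not pair samples by replicate number. With the replicate number as a block, 117 of 119 values kept their call, and Fgf21 in fetal high-dose PFOA (0.98, adjusted p = 0.0475) and Fgfr4 in maternal high-dose GenX (adjusted p = 0.0336) gained one. Levels under the background limit (fetal Fgf21 and Fgfr4, Lepr without exposure) limit what folds can be read.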
